A study of Mus musculus with 6 samples.

Results

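The semaphorins, plexins and neuropilins were read from arrays of sorted mouse ER-negative luminal cells, which line the mammary ducts and include the progenitors of milk-producing alveoli. Probe sets were taken when their annotated symbol was a semaphorin (Sema, a digit and a letter), a plexin (Plxna, Plxnb, Plxnc or Plxnd) or a neuropilin (Nrp1 or Nrp2), which gave 29 genes of the 19505 named genes on the array, each with 1 probe set. They comprised 19 semaphorins, 9 plexins and Nrp2, while Sema4a and Nrp1 were not analysed here. The family was taken up because Sema3c was higher in the knockout, so the values of Sema3c are a description and carry no test, and the counts below come from the same comparison and support nothing about the family.

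The Sox9 KO group was 3 female mice with MMTV-iCre and floxed Sox9 on both alleles, from which ECFP-positive cells were sorted. The WT group was 3 female mice with the same floxed alleles and no Cre, sorted with the same gate (lineage-negative, EpCAM-high, CD49f-low, Sca1-negative) but without the ECFP step, so that loss of Sox9, the presence of Cre and the ECFP sort cannot be told apart. All animals were 8 to 12 weeks old, in diestrus and on a mixed C57BL/6J and FVB/NJ background, and the glands of each animal were dissociated separately. The MMTV promoter drives Cre in only part of the mammary epithelium, and ECFP marks the cells in which Cre acted.

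Semaphorins are ligands that share an extracellular sema domain, and plexins are their main receptors. Class 3 semaphorins are secreted, classes 4, 5 and 6 span the membrane, and class 7 is held by a lipid anchor. Most class 3 members need a neuropilin to hold them on a plexin, and the neuropilins also bind VEGF. Inside the cell, plexins switch off small GTPases of the R-Ras and Rap kind and so loosen adhesion and the cytoskeleton. The family is best known from axon guidance, and it also acts in vessels, immune cells and branching epithelia.

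The values are log2 array signals, so a difference of 1 is a 2-fold difference in signal, and levels of different genes cannot be compared because each probe set has its own response. Sox9 itself had log2 signals of 6.73, 7.84 and 7.51 in Sox9 KO cells, against 11.60, 11.54 and 11.47 in WT cells. It averaged 7.36 ± 0.57 in Sox9 KO cells and 11.54 ± 0.07 in WT cells (SD, n = 3 each), without overlap, and it fell by 4.18 on the log2 scale (adjusted p 0.00867 in limma). The 95th percentile of the negative control probe sets lay between 7.75 and 8.58 on the 6 arrays and served as a strict bar for background, since at most 29.6% of the probe sets on any array lay above it. Of the 29 genes, 4 lay above this bar on every array (Sema4c, Plxna1, Plxnb1 and Plxnb2), 3 on some arrays (Sema3c, Sema4b and Sema6d) and 22 on none. Fold changes of genes under the bar can be understated by background, and their differences are given on the log2 scale only. Of the 9 markers of ER-negative luminal cells, 7 lay above the bar on every array, while 0 of 6 endothelial, 0 of 5 myeloid and 0 of 4 T and NK cell markers did so on any array. Of 5 fibroblast markers, Dcn and Col1a1 lay above it on Sox9 KO replicate 3 and Dcn on WT replicate 1, and of 9 basal markers between 0 and 4 did so on an array. Markers of ER-positive luminal cells lay above it only on WT replicate 3, where 3 of the 4 measured did.

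The windows at the start sites are shown for Sema3c and Sema3e, the members whose 3 Sox9 KO values lay above all 3 WT values, and for Sema4d, the member with the most negative difference, at the start site whose window held a motif match. Each runs from 250 bases before to 50 bases after a RefSeq start site on GRCm38.p6. Capitals mark AACAAT, the core of the sites that SOX proteins bind, or its reverse complement ATTGTT.
Sema3c (chr5:17574566-17574865, plus strand): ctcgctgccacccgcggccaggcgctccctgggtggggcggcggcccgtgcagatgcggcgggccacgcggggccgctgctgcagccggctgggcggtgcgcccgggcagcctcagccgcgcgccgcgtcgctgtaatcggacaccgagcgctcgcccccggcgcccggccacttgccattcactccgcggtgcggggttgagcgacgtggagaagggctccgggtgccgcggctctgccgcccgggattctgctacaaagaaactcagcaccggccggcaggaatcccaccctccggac
Sema3e (chr5:14025026-14025325, plus strand): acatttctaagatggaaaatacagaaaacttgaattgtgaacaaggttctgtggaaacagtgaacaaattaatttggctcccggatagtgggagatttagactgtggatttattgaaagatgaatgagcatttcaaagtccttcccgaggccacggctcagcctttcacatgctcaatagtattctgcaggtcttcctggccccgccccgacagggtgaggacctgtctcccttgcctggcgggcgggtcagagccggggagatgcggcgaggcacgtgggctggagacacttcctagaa
Sema4d (chr13:51748761-51749060, minus strand): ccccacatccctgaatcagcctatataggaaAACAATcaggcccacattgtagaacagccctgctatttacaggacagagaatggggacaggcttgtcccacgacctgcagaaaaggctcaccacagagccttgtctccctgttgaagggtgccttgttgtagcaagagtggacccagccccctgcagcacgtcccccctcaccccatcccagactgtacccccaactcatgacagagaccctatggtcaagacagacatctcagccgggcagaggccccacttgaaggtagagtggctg
The Sema4d window shown held 1 copy of the core, starting 219 bases before the start site. RefSeq gave Sema4d 3 windows, of which the other 2 held 0 copies, and the single windows of Sema3c and Sema3e held 0. G and C made up 75.7% of the Sema3c window and 50.7% of the Sema3e window. RefSeq windows were used for 24 of the 29 genes, and none was used for Plxna1, Plxna4, Sema3b, Sema3f and Sema6a. That none was used does not show that a gene lacks a RefSeq start site. Of these 24 genes, 2 had the core in a window (Sema4d and Plxnb3), against 12.2% of all 27025 genes with windows of this length. The NF-kB consensus was in a window of 4 of the 24 genes (Plxna3, Sema4b, Sema4c and Sema6c), against 9.55% of all genes. The members and all genes may not have been selected alike, so nothing is read from these shares. These letter matches do not show that a factor binds there.

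The comparison asked which of these genes differ in ER-negative luminal cells without Sox9. The samples are bulk sorts, in which fewer cells of a type and less RNA per cell cannot be told apart. Among the members, Sema3c and Sema3e, both secreted, had the most positive differences, and Sema4d, a membrane-bound ligand of plexin-B1, had the most negative one. The genotypes did not overlap for 2 members that were higher (Sema3c and Sema3e) and 4 that were lower in Sox9 KO (Sema4b, Sema4d, Sema6b and Plxnc1), where 14.1% of all tested probe sets did not overlap in either direction (6.85% higher and 7.3% lower in Sox9 KO). An unadjusted p under 0.05 in limma was met by 5 members, where 9.26% of all probe sets met it. The 3 that were higher in Sox9 KO were Sema3c, Sema3e and Sema6d, where 4.28% of all probe sets were higher at this p, and the 2 that were lower were Sema4d and Sema6b, where 4.99% were lower. Because the family was taken up from this same comparison, nothing is read from these shares. At an adjusted p under 0.05, limma called 0 members and 0.00901% of all probe sets, and the smallest adjusted p among the 28 members other than Sema3c was 0.288, for Sema3e. Over the 29 genes, 15 lay above and 14 below 0. The median was 0.01, beside 0.01 over all named genes.

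**Figure D1:**
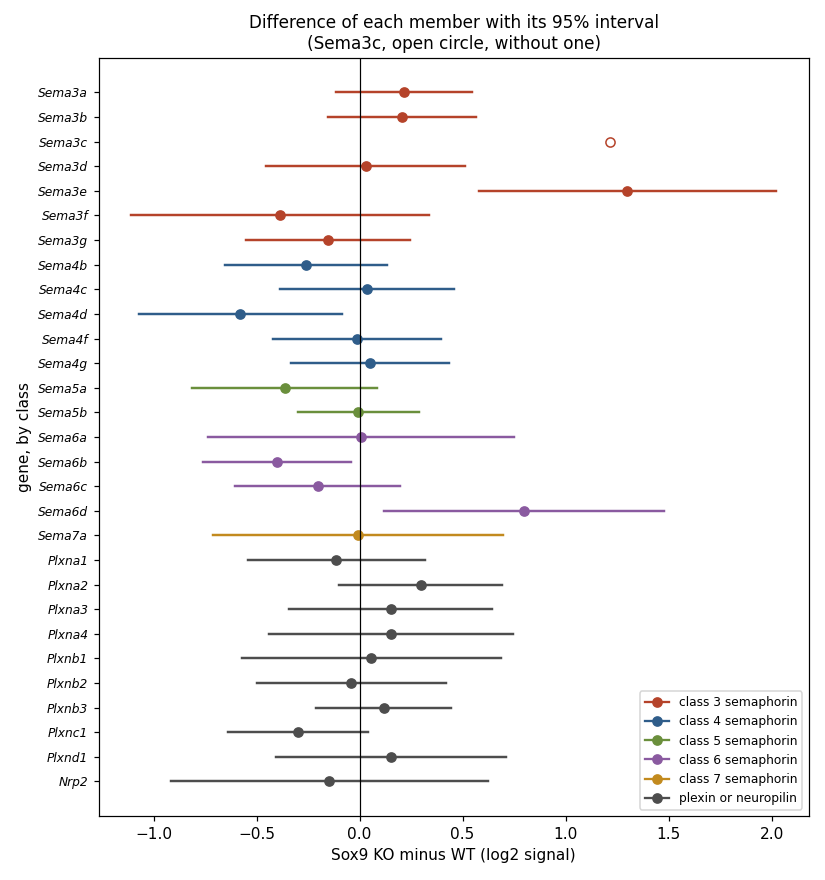
Sox9 KO minus WT difference in log2 signal (horizontal axis) for the 29 genes, grouped by class down the page. Points are differences of means over 3 arrays each and lines are 95% intervals of the limma fit, left out for Sema3c because its value chose the family. Sema3c (1.22), Sema3e (1.30) and Sema6d (0.80) lie furthest to the right, and Sema4d (-0.58) lies furthest to the left.

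Sema3c, a secreted ligand that acts through neuropilins with plexin-A or plexin-D1 receptors, had log2 signals of 8.67, 8.91 and 8.80 in Sox9 KO cells, against 7.40, 7.76 and 7.57 in WT cells. The lowest Sox9 KO value lay 0.91 above the highest WT value, and the 3 Sox9 KO arrays lay close together. The means were 8.79 ± 0.12 in Sox9 KO and 7.58 ± 0.18 in WT (SD, n = 3 each), a difference of 1.22 (SE 0.15). All 3 Sox9 KO signals lay above the background bar and all 3 WT signals under it, so Sema3c was at least 1.42-fold higher in Sox9 KO when WT is put at the bar. The difference was between 1.13 and 1.31 with any single array left out. Since the family was chosen for the rise of Sema3c, these values only describe it and add no support.

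Sema3e, a class 3 ligand that binds plexin-D1 without a neuropilin, had log2 signals of 7.94, 7.92 and 7.01 in Sox9 KO cells, against 6.0, 6.83 and 6.14 in WT cells. Sox9 KO replicate 3 was the low one and lay 0.18 above the highest WT array. The difference was 1.30 (SE 0.31, 95% interval 0.58 to 2.02). It was 1.61 when Sox9 KO replicate 3 was left out and 1.14 when either Sox9 KO replicate 1 or WT replicate 1 was. All 6 signals lay under the background bar, so no fold is given.

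For the other class 3 members the 95% intervals included 0. Sema3a, the classical repellent of growing axons, differed by 0.22 (95% interval -0.11 to 0.55) and Sema3b by 0.21 (-0.15 to 0.57). Sema3d differed by 0.03 (-0.45 to 0.51) and turned below 0 with median centring and without Sox9 KO replicate 1, Sox9 KO replicate 3 or WT replicate 1. Sema3f, a ligand of neuropilin 2, differed by -0.39 (-1.11 to 0.34), and Sema3g by -0.15 (-0.55 to 0.25). The genotypes overlapped for these 5 genes, and all 5 lay under the bar on every array. Over the class, 5 of 7 genes were higher, with a median difference of 0.21. Of all 19505 named genes, 9992 were higher, with a median of 0.01. The 5 include Sema3c, whose rise chose the family, so nothing is read from this count or median.

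**Figure D2:**
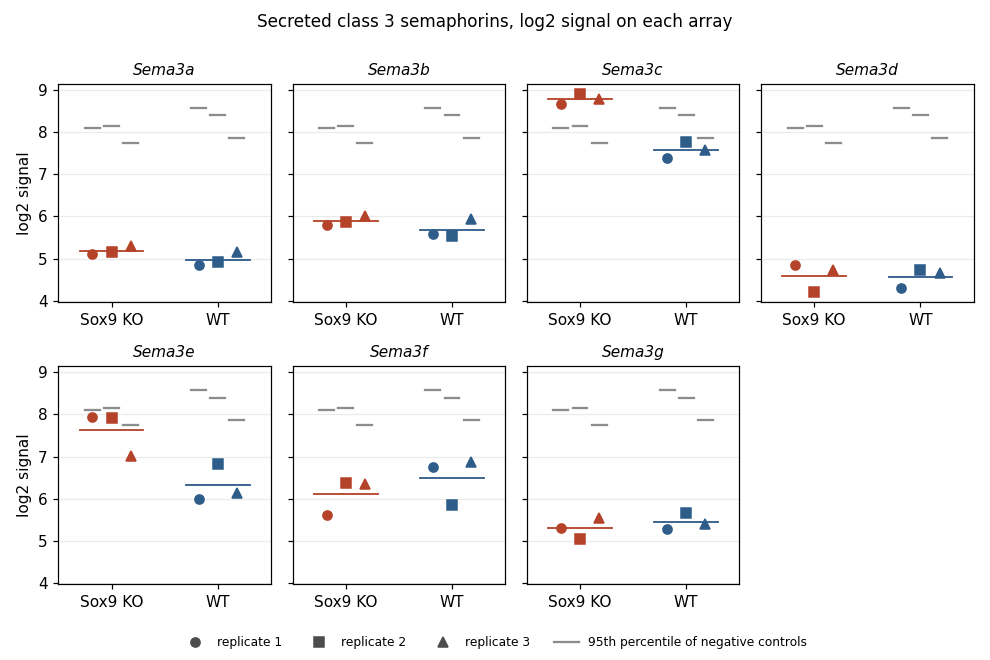
Log2 signal (vertical axis) of the 7 class 3 semaphorins on each array, Sox9 KO left and WT right, with a symbol for each replicate. Coloured lines are group means and short grey lines mark the background bar of that array. The Sox9 KO arrays lie above all WT arrays for Sema3c and Sema3e and mix with them for the other 5 genes, and Sema3c in Sox9 KO is the panel where signals lie above the grey lines.

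Sema3a, Sema3c, Sema3d and Sema3e lie near each other on chromosome 5 in the RefSeq genes of GRCm38.p6. Between Sema3e and Sema3c stand 10 other named genes of the array, whose differences ran from -0.08 to 0.81 with a median of 0.05. Of these 10, 8 were higher and 2 lower in Sox9 KO. An unadjusted p under 0.05 in limma was met by 0 of them, and 0 lay above the background bar on any array. The value of 0.81 was that of Hgf, the ligand of the receptor Met (SE 0.44, 95% interval -0.20 to 1.82). Just past Sema3c, Gnat3 (0.18) and Gnai1 (0.22) were higher without overlap, where 6.85% of all probe sets were. Cd36 differed by -0.39 with overlap. These genes also lay under the bar on every array, and their intervals included 0. The neighbours were looked up after the values of Sema3c and Sema3e had been seen.

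Among the membrane-bound semaphorins, Sema6d was the one with a positive difference whose interval left out 0. Sema6d, a ligand of plexin-A1, had log2 signals of 7.88, 8.77 and 8.64 in Sox9 KO cells, against 7.75, 7.16 and 7.99 in WT cells. Sox9 KO replicate 1 lay below WT replicate 3, so the genotypes overlapped. The difference was 0.80 (SE 0.29, 95% interval 0.12 to 1.47) and was 1.07 when Sox9 KO replicate 1 was left out and 0.56 when WT replicate 2 was. Sox9 KO replicates 2 and 3 and WT replicate 3 lay above the bar.

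Sema4d, known as CD100 on lymphocytes and a ligand of plexin-B1, had log2 signals of 6.21, 6.29 and 5.56 in Sox9 KO cells, against 6.44, 6.70 and 6.66 in WT cells. The groups did not overlap, by a gap of 0.15, and Sox9 KO replicate 3 was the lowest array. The difference was -0.58 (SE 0.21, 95% interval -1.07 to -0.09), or -0.35 without Sox9 KO replicate 3. Sema6b, a ligand of plexin-A4, had signals of 5.84, 5.94 and 5.99 in Sox9 KO cells, against 6.07, 6.38 and 6.52 in WT cells. The 3 Sox9 KO arrays lay closer together than the WT arrays and all below them, by a gap of 0.08, with a difference of -0.40 (SE 0.16, 95% interval -0.76 to -0.04). Both genes lay under the bar on every array.

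Sema4b had log2 signals of 7.97, 7.99 and 7.82 in Sox9 KO cells, against 8.02, 8.03 and 8.51 in WT cells. The gap between the groups was only 0.03 and WT replicate 3 alone stood higher. Without WT replicate 3 the difference was -0.10 in place of -0.26 (SE 0.17). Sema4c, a ligand of plexin-B2 and the one semaphorin above the bar on every array, had signals of 9.82, 9.59 and 9.44 in Sox9 KO cells, against 9.57, 9.31 and 9.86 in WT cells. The groups overlapped, and the difference was 0.04 (SE 0.18, 95% interval -0.39 to 0.46), with the sign turned by median centring and without Sox9 KO replicate 1 or WT replicate 2.

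The other 7 membrane-bound semaphorins overlapped between the genotypes and lay under the bar on every array. Sema5a differed by -0.36 (95% interval -0.81 to 0.09) and Sema6c by -0.20 (-0.60 to 0.20). Sema4f, Sema4g, Sema5b, Sema6a and Sema7a differed by between -0.01 and 0.05, and their signs turned with single arrays left out, for Sema6a also with quantile normalization and median centring. Their intervals were unequal in width, from -0.30 to 0.29 for Sema5b and from -0.73 to 0.75 for Sema6a. Sema7a, the lipid-anchored ligand of plexin-C1 and of integrins, had an interval of -0.71 to 0.70. Over classes 4 to 7, 4 of 12 genes were higher and 8 lower, with a median difference of -0.01.

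**Figure D3:**
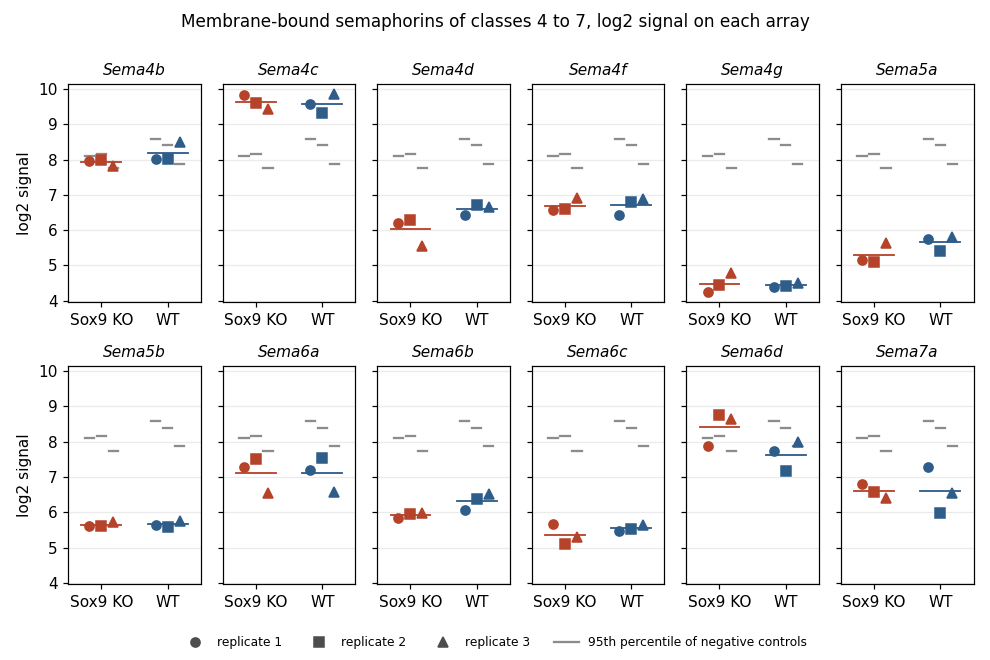
Log2 signal (vertical axis) of the 12 semaphorins of classes 4 to 7 on each array, Sox9 KO left and WT right, with a symbol for each replicate, group means as coloured lines and the background bar of each array as short grey lines. Sema4c lies above the grey lines throughout, Sema6d only on 3 of 6 arrays, and the Sox9 KO arrays lie below all WT arrays for Sema4b, Sema4d and Sema6b.

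The 3 receptors above the bar on every array overlapped between the genotypes. Plxnb2, a broadly expressed epithelial plexin, had log2 signals of 9.81, 9.90 and 9.21 in Sox9 KO cells, against 9.75, 9.60 and 9.69 in WT cells. Plxnb1 had signals of 9.40, 9.09 and 8.54 in Sox9 KO cells, against 9.36, 8.92 and 8.58 in WT cells. Plxna1 had signals of 8.52, 9.04 and 8.50 in Sox9 KO cells, against 8.69, 8.98 and 8.73 in WT cells. The differences were -0.04 for Plxnb2 (95% interval -0.50 to 0.42), 0.06 for Plxnb1 (-0.57 to 0.68) and -0.11 for Plxna1 (-0.54 to 0.32). The sign turned for Plxnb2 without Sox9 KO replicate 3 and for Plxnb1 without Sox9 KO replicate 1 or WT replicate 3, and a change within these intervals could not be seen with 3 arrays a genotype.

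Plxnc1, the receptor of Sema7a, had log2 signals of 7.49, 7.57 and 7.57 in Sox9 KO cells, against 8.08, 7.73 and 7.72 in WT cells. The groups did not overlap, by 0.15, and WT replicate 1 stood above the other arrays. The difference was -0.30 (SE 0.15, 95% interval -0.64 to 0.04), or -0.18 without WT replicate 1, and all 6 signals lay under the bar. The other 5 plexins were under the bar as well and overlapped between the genotypes. Plxnd1, the receptor of Sema3e, differed by 0.15 (-0.41 to 0.71), and its sign turned without Sox9 KO replicate 1. Plxna2 differed by 0.30 (-0.10 to 0.69), Plxna3 and Plxna4 by 0.15 each (below 0 for Plxna3 without Sox9 KO replicate 2, and 0 for Plxna4 without Sox9 KO replicate 3), and Plxnb3 by 0.12 (-0.21 to 0.44).

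Nrp2, the neuropilin of several class 3 semaphorins and of the lymphatic growth factor VEGF-C, had log2 signals of 5.42, 5.64 and 5.95 in Sox9 KO cells, against 6.62, 5.39 and 5.44 in WT cells, given here after they had been seen. WT replicate 1 was the highest array and Sox9 KO replicate 3 the next. The difference was -0.15 (95% interval -0.92 to 0.62) and turned to 0.26 without WT replicate 1. The mean level of 6 endothelial markers was also highest on these arrays, at 0.53 above the WT mean for Sox9 KO replicate 3 and 0.69 for WT replicate 1, against values between -0.58 and -0.22 on the other 4, and that of 5 fibroblast markers stood at 1.31 on Sox9 KO replicate 3 and 0.40 on WT replicate 1, against values between -0.33 and -0.08 on the others. Their part in the Nrp2 values was not tested.

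**Figure D4:**
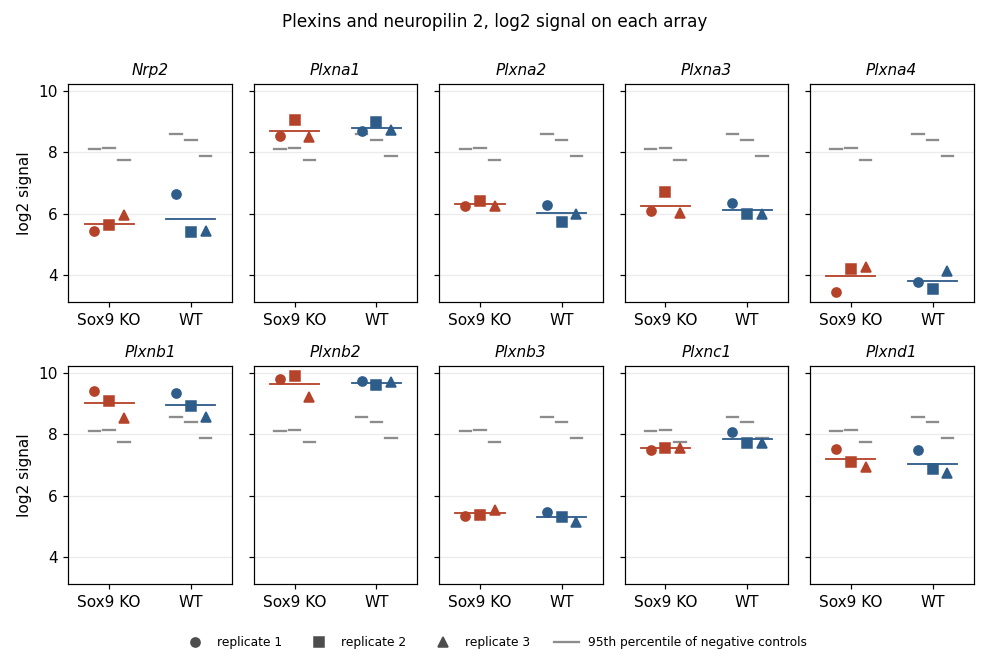
Log2 signal (vertical axis) of Nrp2 and the 9 plexins on each array, Sox9 KO left and WT right, with a symbol for each replicate, group means as coloured lines and the background bar of each array as short grey lines. Plxna1, Plxnb1 and Plxnb2 lie above the grey lines on every array with means that differ by at most 0.11, and Plxnc1 is the receptor whose Sox9 KO arrays all lie below the WT arrays.

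Ligands and their known receptors can be set side by side. Sema3e differed by 1.30 and its receptor Plxnd1 by 0.15. Sema6d differed by 0.80 and its receptor Plxna1 by -0.11. Sema4d differed by -0.58 and its receptor Plxnb1 by 0.06. Sema4c differed by 0.04 and its receptor Plxnb2 by -0.04. Sema6b differed by -0.40 and its receptor Plxna4 by 0.15. The first 3 ligands are those with the widest differences apart from Sema3c, so nothing is read from their distance to the receptors, and no pair was tested. Sema7a differed by -0.01 and its receptor Plxnc1 by -0.30.

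Markers of basal cells, the other epithelial layer of the duct, were unequal in their differences. Of 9 basal markers, 3 were higher at an unadjusted p under 0.05 in limma (Krt14, Trp63 and Krt17), where 4.28% of all probe sets were higher. At the adjusted threshold limma called 0 of the basal markers. Their mean level was between 6.97 and 7.38 on the Sox9 KO arrays, against 6.07 to 6.77 on the WT arrays. Krt14, a basal keratin, differed by 2.57 (SE 0.39), Trp63, the basal transcription factor, by 1.99 (SE 0.38), the keratin Krt17 by 1.15 (SE 0.30) and the oxytocin receptor Oxtr by 0.54 (SE 0.36). Krt5 and the contractile genes Acta2, Cnn1, Myh11 and Mylk differed by 0.27, 0.10, 0.06, -0.03 and -0.06, and these 5 lay under the bar on all 6 arrays. Relative to its WT mean the basal list was 0.48, 0.89 and 0.83 in the Sox9 KO cells, against 0.28, -0.42 and 0.14 in the WT cells. Among the WT arrays it was lowest on replicate 2, where Sema6d was also lowest and Sema3c and Sema3e were highest. Among the Sox9 KO arrays it was lowest on replicate 1 and highest on replicate 2, as were Sema3c and Sema6d. Sema3e was highest on Sox9 KO replicate 1. Luminal markers were also unequal. The list shared by luminal cells was -0.37, -0.09 and -0.26 relative to its WT mean in the Sox9 KO cells, against about 0 in the WT cells. Of its 6 genes, 4 were lower without overlap (Krt8, Krt18, Epcam and Cldn4), where 7.3% of all probe sets were. Krt19 and Cldn3 differed by 0.12 and 0.25, with overlap. Among the ER-negative luminal markers, Itga2 differed by -0.98, Aldh1a3 by -1.08 and Ltf by -1.61, and Gabrp by 1.96. The rest of this list differed less: Lcn2 by -0.32, Cd14 by -0.10, Sox10 by 0.003, Elf5 by 0.007 and Kit by 0.21. The part of these shifts in the semaphorin values was not tested. Relative to their WT mean, 7 cell cycle markers averaged 3.51, 1.19 and 0.13 in the Sox9 KO cells, against 0.75, -0.36 and -0.39 in the WT cells. With Sox9 KO replicate 1, their highest array, left out, Sema3c differed by 1.28, Sema3e by 1.14 and Sema6d by 1.07. The cell cycle markers still stood at 1.19 on Sox9 KO replicate 2, and their part in these values was not tested. With WT replicate 3 left out, the array with ER-positive luminal markers above the bar, Sema3c differed by 1.21, Sema3e by 1.21 and Sema6d by 0.97. Without this array Sema4d differed by -0.55, Sema6b by -0.30 and Plxnc1 by -0.36, while Sema4b differed by -0.10 in place of -0.26. The part of ER-positive cells in these values was not tested either.

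**Figure D5:**
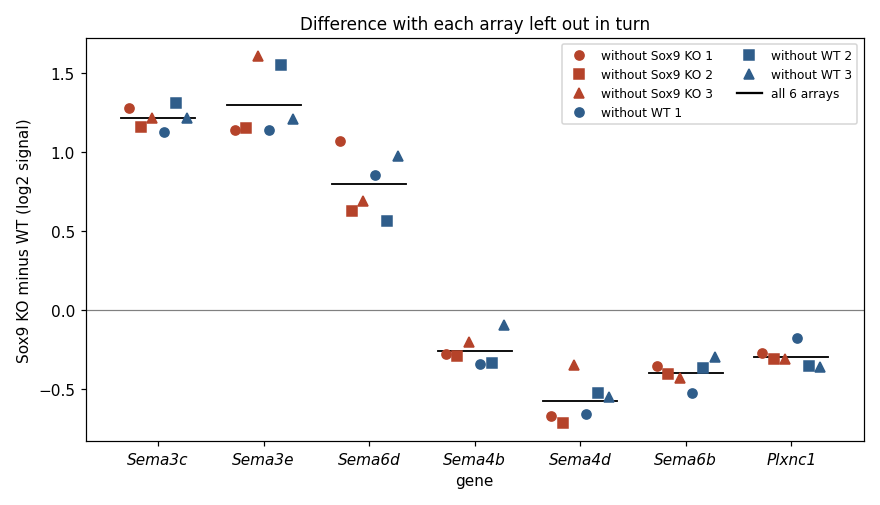
Sox9 KO minus WT difference in log2 signal (vertical axis) of Sema6d and of the 6 genes whose genotypes did not overlap (horizontal axis), with each array left out in turn. Red symbols leave out a Sox9 KO array and blue symbols a WT array, and black lines are the values from all 6 arrays. For 6 of the 7 genes the lack of overlap, by which they were chosen, fixes the side of 0, and Sema4b comes nearest to it, at -0.10 without WT replicate 3.

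Of the other receptors and partners of semaphorins and plexins, 13 of 14 listed genes were measured and 0 passed an adjusted p of 0.05 in limma. At an unadjusted p under 0.05, 1 was higher and 1 lower, where 4.28% of all probe sets were higher and 4.99% lower. Met, the HGF receptor, which couples to B-type plexins, differed by -0.60 (SE 0.21), and Ptk7, a receptor-like protein of planar polarity, by 0.53 (SE 0.21), both with signals above the bar on every array. Itgb1, the integrin subunit through which Sema7a can act, differed by -0.36 (SE 0.16), and Erbb2, which can associate with plexin-B1, by 0.26 (SE 0.18).

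Of the genes that relay plexin signals, 32 of 34 were measured, 12 were higher and 18 lower, with a median difference of -0.05, and 0 passed the adjusted threshold. At an unadjusted p under 0.05, 2 were higher and 3 lower, where 4.28% of all probe sets were higher and 4.99% lower. The genotypes did not overlap for 2 that were higher and 5 that were lower, where 6.85% of all probe sets were higher and 7.3% lower without overlap. Those named here are only some of them, in both directions. Dpysl3, a collapsin response mediator that links semaphorin signals to the cytoskeleton, differed by 1.59 (SE 0.32). Its signal lay above the bar on only 1 Sox9 KO array, and all 3 WT signals lay under it, so no fold is given. Rac1, a GTPase that plexins bind, differed by -0.34 (SE 0.13), and the kinase Cdk5 by 0.36 (SE 0.14).

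All 8 of the listed proteases that cut semaphorins were measured, and 0 passed the adjusted threshold. Pcsk6, a furin-like convertase, had log2 signals of 8.20, 7.09 and 6.85 in Sox9 KO cells, against 6.12, 6.12 and 5.83 in WT cells. The groups did not overlap, and the difference was 1.36 (SE 0.33, adjusted p 0.294 in limma), or 0.95 without Sox9 KO replicate 1, the highest array and the one above the bar. Furin, the main convertase that matures class 3 semaphorins, differed by -0.33 (SE 0.17), Mmp14 by 0.53 (SE 0.33) and Pcsk7 by -0.23 (SE 0.18). 

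Of the 8 VEGF ligands and receptors, which share the neuropilins with class 3 semaphorins, 0 passed the adjusted threshold. Vegfa, the main ligand of vessel growth, had log2 signals of 9.05, 9.17 and 9.41 in Sox9 KO cells, against 9.70, 9.91 and 9.70 in WT cells. All signals lay above the bar, the groups did not overlap, and the difference was -0.56 (SE 0.15, adjusted p 0.334 in limma). Flt4, the VEGF-C receptor, differed by 0.43 (SE 0.14), Vegfc by 0.25 (SE 0.15) and Flt1 by 0.57 (SE 0.34). Flt4 and Flt1 lay under the bar on every array.

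Among the other guidance families, 21 of 22 ephrins and Eph receptors were measured, and 0 passed the adjusted threshold. Of these 21, 14 were higher and 7 lower, where 9992 of all 19505 named genes were higher and 9394 lower. At an unadjusted p under 0.05, 3 were higher and 3 lower, where 4.28% of all probe sets were higher and 4.99% lower. Epha2, an Eph receptor of epithelia, had log2 signals of 9.85, 10.51 and 10.49 in Sox9 KO cells, against 11.36, 11.27 and 11.12 in WT cells, a difference of -0.97 (SE 0.20, adjusted p 0.222 in limma). Epha4 had signals of 8.34, 8.99 and 7.96 in Sox9 KO cells, against 7.46, 6.79 and 6.85 in WT cells, a difference of 1.40 (SE 0.29, adjusted p 0.222 in limma). These receptors, named for the smallest p of the list, differed in opposite directions, without overlap of the groups in either. Over the list, 4 were higher and 3 lower without overlap, where 6.85% of all probe sets were higher and 7.3% lower. Ephb3 differed by -0.57 (SE 0.15) and the ephrin Efnb1 by -0.56 (SE 0.14). All 7 slits and robos lay under the bar on every array, and Robo2, an axon guidance receptor, differed by 1.0 (SE 0.18, adjusted p 0.196 in limma). Of 10 netrins and netrin receptors measured, 0 passed the adjusted threshold, and Unc5d had the smallest unadjusted p with a difference of 0.33 (SE 0.13). The next 3 by p, Ntn4, Unc5a and Unc5b, differed by 0.46, 0.17 and -0.15, each with a 95% interval that included 0. Unc5d and Unc5a lay under the bar on every array.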

How the data were processed

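RNA from sorted ER-negative luminal cells of 3 Sox9 KO and 3 WT mice was measured on Affymetrix Clariom S Pico mouse arrays. The authors processed the scans with Expression Console and Transcriptome Analysis Console and deposited log2 signals with 2 decimals. How background was corrected, arrays normalized and probes summarised was not given in the sources used here. The log2 scale was inferred from the values themselves. Low signals are compressed towards background. Precision is limited by having 3 arrays for each genotype.

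Array controls (6640 of 28846 probe sets) were left out, which left 22206. The platform annotation gave 1 symbol to 19572 of them, and the other 2634 are unnamed here. Where a gene had several probe sets, the one with the highest mean stood for it. R 4.3.3 and limma 3.58.1 (lmFit, then eBayes) gave the Sox9 KO minus WT differences and two-sided p-values, without covariates, and p-values were adjusted by Benjamini-Hochberg over all 22206 probe sets, with 0.05 as the threshold. The fit was tested on simulated data. Bounds against background compare the mean of the brighter group with the mean, for each array, of the higher of the signal and the 95th percentile of 5222 negative controls. The members and lists were chosen with earlier results of these data known. Signals of each array are given for Sema3c and for members that did not overlap, differed by at least 0.5 or had a mean above the mean bar, and of each other list up to 4 genes with the smallest p are named. A gene that this rule names in the list of plexin signal relay is not reported here. The alternatives were each array left out, the methods' t-test, a replicate block, array weights, a robust variance with a trend, omission of the dimmest 25% of probe sets, centring on medians, quantile normalization and the mean over probe sets.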

Additional observations from a re-analysis of the deposited data

How the results depend on the processing

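The count of members past an adjusted p of 0.05 was 0 under every alternative run. The count at an unadjusted p under 0.05 was 5, where 9.26% of all probe sets met it. It was 3 with the methods' t-test (7.75% of all probe sets) and between 3 and 6 with single arrays left out (5.63% to 12.6%). The arrays whose omission gave 3 were Sox9 KO replicate 2 and WT replicates 2 and 3. The count without overlap of the genotypes was 6 and lay between 7 and 10 with single arrays left out, since fewer arrays overlap less often: it was 10 without Sox9 KO replicate 1 (23.3% of all probe sets) and 10 without WT replicate 1 (24.0%). With the replicate number as a block, 5 members had an unadjusted p under 0.05 and 0 passed the adjusted threshold. Deviations of same-numbered arrays correlated with r of 0.119, -0.034 and 0.033, within the range of differently numbered arrays (-0.158 to 0.145). No pairing by number was seen, but deviations from means of 3 arrays cannot exclude it. Of the 29 members, 16 kept the sign of their difference under the 9 alternatives run on it, and 1 (Plxna4) reached 0 in a setting. The other 12 turned sign, all with differences of at most 0.15 in size. The replicate block could not change a difference, since each block holds 1 array of each genotype. For the 6 members without overlap, the sign with single arrays left out was fixed in advance. Each gene had 1 probe set, so the mean over probe sets gave the same values.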
